A study of Mus musculus with 80 samples.

Results

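Ribosome biogenesis genes were followed across 80 mouse mammary tumours as a named list of 42 genes that encode snoRNP proteins, RNA polymerase I subunits, nucleolar proteins, subunit processing factors and a few growth enzymes. Of the 42, 38 had a probe set of their own on the array, out of 12393 genes measured in all. All 38 passed the filter on dim probe sets, which required a signal above the 40th percentile on at least 10 arrays. Dkc1, Nat10, Nob1 and Mrto4 were not analysed here; the Mrto4 probe set also carries the names of other loci. These genes are known as targets of Myc. Their relation to the Myc signal between tumours was measured, and whether Myc drives them was not tested.

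All tumours arose in FVB mice with the MMTV-Myc transgene, which puts the Myc oncogene under the mouse mammary tumour virus promoter, active mainly in mammary epithelium. There were 20 tumours null for the E2F1 gene, 20 null for E2F2, 20 heterozygous for E2F3 and 20 wild type for the E2F genes, so that the wild-type tumours carry the Myc transgene too. Tumours were taken at endpoint and frozen, the labels give no age, and each tumour was hybridised to 1 single-colour array. Tumours without the Myc transgene and normal mammary gland are not among the groups, and the comparison with Myc therefore rests on its variation between Myc tumours.

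Ribosomes are assembled in the nucleolus. RNA polymerase I makes a long precursor RNA, small nucleolar ribonucleoproteins (snoRNPs) modify it, and large sets of processing factors cleave it and build the small and the large subunit around it. Myc is a transcription factor that pairs with Max, binds the DNA letters CACGTG (the canonical E-box) and related sites, and is widely known to raise transcription of many genes of this pathway, together with genes of polyamine and nucleotide synthesis that growing cells need.

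The promoters were examined first, because CACGTG is the site by which Myc and Max are best known. RefSeq promoter windows of the mouse assembly GRCm38.p6, which run from 250 bases before to 50 bases after a gene start, were at hand for 31 of the 38 measured genes. CACGTG, which reads the same on both strands, occurred in 5 of the 31 (16.1%), against 10.8% of 9887 genes with a named probe set and 8.09% of 27025 genes of the whole promoter table. It lay before the start of Imp4 (first letter at position -121), Nop2 (-60) and Eif4a1 (-189), and just after the start of Pes1 (3) and Wdr43 (18), where position 1 is the first base from the start on. The 250 bases before the start are shown for the first 3, with CACGTG in capitals, and for Ppan, whose window holds no CACGTG and which had the smallest p-value against Myc among the listed genes. They come from chr1:34439579-34439828 (Imp4, plus strand), chr6:125131633-125131882 (Nop2, plus strand), chr11:69672424-69672673 (Eif4a1, minus strand) and chr9:20887925-20888174 (Ppan, plus strand), 5′ to 3′.
Imp4: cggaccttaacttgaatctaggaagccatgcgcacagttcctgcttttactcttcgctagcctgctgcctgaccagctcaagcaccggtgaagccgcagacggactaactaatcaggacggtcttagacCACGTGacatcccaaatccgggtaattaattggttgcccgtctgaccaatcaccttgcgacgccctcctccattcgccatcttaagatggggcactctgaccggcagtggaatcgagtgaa
Nop2: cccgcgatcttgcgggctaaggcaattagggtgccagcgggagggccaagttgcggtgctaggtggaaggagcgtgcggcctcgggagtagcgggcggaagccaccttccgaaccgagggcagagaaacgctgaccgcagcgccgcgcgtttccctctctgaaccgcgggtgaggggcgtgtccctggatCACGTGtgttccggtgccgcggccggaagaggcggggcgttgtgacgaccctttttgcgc
Eif4a1: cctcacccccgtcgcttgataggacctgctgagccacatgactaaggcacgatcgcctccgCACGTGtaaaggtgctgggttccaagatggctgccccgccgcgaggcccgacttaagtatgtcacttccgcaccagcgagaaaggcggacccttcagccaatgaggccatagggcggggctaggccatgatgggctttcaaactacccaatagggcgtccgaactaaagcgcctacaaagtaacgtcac
Ppan: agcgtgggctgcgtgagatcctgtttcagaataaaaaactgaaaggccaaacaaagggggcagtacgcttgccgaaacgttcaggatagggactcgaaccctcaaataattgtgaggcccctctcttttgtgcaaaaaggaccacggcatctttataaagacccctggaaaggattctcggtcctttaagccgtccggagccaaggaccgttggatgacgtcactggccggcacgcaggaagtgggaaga

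A match to these 6 letters describes the window and was not tested as a binding site. The other 26 measured genes with a window have no CACGTG in it, and their relation to the Myc signal is given below with that of the others.

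The quality of the series touches these genes at a few points. All 11 luminal epithelial markers (Krt8, Krt18, Epcam and others) passed the filter in these mammary tumours, while of the 8 T and B cell markers with a probe set 0 did. E2f1, by its brightest probe set, ran from 5.85 to 7.48 on the log2 scale in E2F1 null tumours (median 7.06) and from 6.53 to 7.63 in wild type (median 7.11), so this probe set does not separate the groups. E2f3 ran from 5.58 to 6.99 in E2F3 heterozygous tumours (median 6.73) and from 6.01 to 7.19 in wild type (median 6.71). The exons that the altered alleles lack are not stated in the labels, and no value is given for E2f2. E2F1 null replicate 6 stood apart, with the lowest Myc signal, the lowest level of the listed genes and the highest level of collagen and fibroblast genes of all 80 tumours. The counts of genes that rose with Myc are given with and without it, and the genes whose call needs it are named with them.

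The Myc signal varied 2.73-fold across the 80 tumours. On the log2(value + 5) scale its lowest, median and highest values were 12.48, 13.56 and 13.85 in E2F1 null tumours, 12.79, 13.56 and 13.92 in E2F2 null tumours, 12.77, 13.47 and 13.88 in E2F3 heterozygous tumours and 12.95, 13.52 and 13.74 in wild type. The 4 genotypes overlapped almost entirely, and each held at least 1 tumour with a clearly lower Myc signal than the rest. A single probe set measures Myc, and the labels do not say whether it reads the transgene, the mouse gene or both.

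For each gene a slope on Myc was fitted: the change of the gene in log2 units per log2 unit of the Myc signal, with genotype in the model and with the number before the hyphen in the sample labels as a random block. A slope of 0.5 therefore means that a gene differs by 0.5 log2 units between tumours whose Myc signal differs by a factor of 2. Of the 38 listed genes, 32 rose with the Myc signal (84.2%, adjusted p under 0.05 over all genes by limma), against 23.5% of the 8768 genes tested. The list was chosen with earlier results of these data known, so the comparison of these shares is a description. None of the 38 fell (0 called lower, 0 with a negative slope), against 21.9% called lower among all genes. An unadjusted p under 0.05 by limma, in either direction, was reached by 34 of 38, against 52.6% of all genes. The median slope was 0.47 (range 0.14 to 0.76), against 0.03 over all genes. Without E2F1 null replicate 6 the count was 26 of 38, against 18.5% of all genes, with a median slope of 0.41. The 6 genes that no longer passed were Fbl (slope 0.18), Ddx21 (0.28), Imp4 (0.23), Rrs1 (0.20), Ebna1bp2 (0.21) and Nip7 (0.23). Of 31 further probe sets, which measured 22 of these genes again, 31 had a positive slope and 20 passed. They read the same tumours on the same arrays and are not separate observations. Over all genes, by the brightest probe set, 4652 of 8768 slopes were positive and 23.5% were called higher. These are bulk tumours, in which fewer cells of a type and less RNA per cell cannot be told apart.

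**Figure D1:**
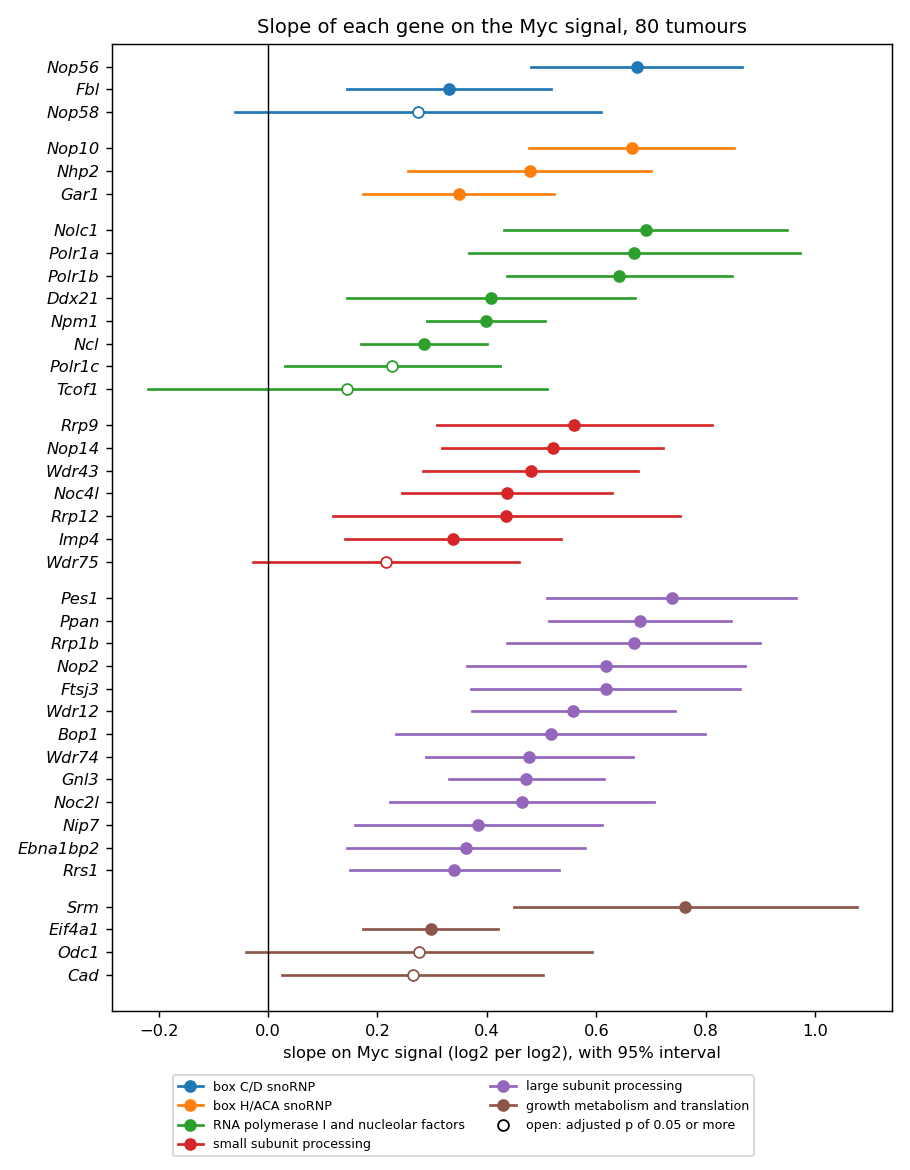
Slope of each of the 38 genes on the Myc signal over 80 tumours (log2 per log2, horizontal axis), with 95% intervals, ordered by role. All 38 points lie right of 0, from 0.14 for Tcof1 to 0.76 for Srm, and the 6 open points did not pass an adjusted p of 0.05.

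The box C/D snoRNP places methyl groups on ribosomal RNA. Of its 3 measured proteins, Nop56 and the methyltransferase fibrillarin (Fbl) rose with Myc and Nop58 did not pass; without E2F1 null replicate 6, Nop56 alone passed. Nop56 had a slope of 0.67 (SE 0.10, limma adjusted p = 8.48e-08) and Fbl one of 0.33 (SE 0.09, adjusted p = 0.00281). The lowest, median and highest log2 signals of Nop56 were 10.70, 11.79 and 12.17 in E2F1 null tumours, 11.12, 11.86 and 12.35 in E2F2 null tumours, 11.19, 11.81 and 12.18 in E2F3 heterozygous tumours and 11.10, 11.85 and 12.27 in wild type. The medians of the 4 genotypes lay within 0.1 of each other, and the low end of each genotype came from few tumours. Nop58, the partner of Nop56 in the same particle, had a slope of 0.27 (SE 0.17, adjusted p = 0.178). Nop58 was among the 3 listed genes with the largest spread over tumours, an SD of 0.40, and a single probe set measures it. Its lowest, median and highest signals were 9.16, 10.62 and 10.96 in E2F1 null tumours, 9.85, 10.66 and 11.20 in E2F2 null tumours, 9.86, 10.44 and 11.13 in E2F3 heterozygous tumours and 9.21, 10.70 and 10.99 in wild type. The lowest tumours of the E2F1 null and wild-type groups lay more than 0.6 log2 units below the lowest of the other groups.

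The box H/ACA snoRNP converts uridine to pseudouridine. Its 3 measured proteins all rose with Myc: the small subunit Nop10 with a slope of 0.66 (SE 0.09, adjusted p = 6.67e-08), Nhp2 with 0.48 (SE 0.11, adjusted p = 0.000324) and Gar1 with 0.35 (SE 0.09, adjusted p = 0.000816). The signal of Nop10 ran from 11.81 over a median of 12.65 up to 12.99 in E2F1 null tumours, from 11.76 over 12.74 up to 13.10 in E2F2 null tumours, from 12.12 over 12.56 up to 13.08 in E2F3 heterozygous tumours and from 11.92 over 12.68 up to 13.24 in wild type. A further probe set of Nop10 gave a slope of 0.85 (SE 0.12). The catalytic subunit of this particle, Dkc1, was not analysed here.

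Among RNA polymerase I subunits and nucleolar proteins, 6 of 8 rose with Myc, and 5 of 8 without E2F1 null replicate 6, where Ddx21 did not pass. The largest subunit of the polymerase, Polr1a, had a slope of 0.67 (SE 0.15, adjusted p = 0.000233), and the second largest, Polr1b, one of 0.64 (SE 0.10, adjusted p = 8.93e-07). Polr1c, a subunit shared with RNA polymerase III, had 0.23 (SE 0.10, adjusted p = 0.0518), and its other probe set had 0.27 (SE 0.10, adjusted p = 0.0198 among all probe sets). Nolc1, a chaperone of snoRNPs also called Nopp140, had 0.69 (SE 0.13, adjusted p = 1.63e-05), and the RNA helicase Ddx21 had 0.41 (SE 0.13, adjusted p = 0.00896), with 0.34 (SE 0.20, adjusted p = 0.165 among all probe sets) by its other probe set.

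Nucleophosmin (Npm1), a histone chaperone and ribosome export factor of the nucleolus, had a shallow but precise slope, 0.40 (SE 0.05, adjusted p = 2.98e-08). Its lowest, median and highest signals were 13.35, 14.01 and 14.32 in E2F1 null tumours, 13.68, 14.06 and 14.28 in E2F2 null tumours, 13.64, 13.90 and 14.18 in E2F3 heterozygous tumours and 13.56, 13.95 and 14.17 in wild type. By the brightest probe set of each gene, Npm1, nucleolin (Ncl) and Eif4a1 varied least of the 38. Their SDs were 0.17, 0.15 and 0.17 over 80 tumours. The median SD was 0.28 for the listed genes and 0.36 for all tested genes. The spread of their other probe sets was not compared. Nucleolin, which binds nascent ribosomal RNA, had a slope of 0.29 (SE 0.06, adjusted p = 4.74e-05). Its other probe sets gave less precise slopes of 0.17 (SE 0.14, limma adjusted p = 0.328 among all probe sets), 0.42 (SE 0.12) and 0.50 (SE 0.16). Nucleolin ran from 13.09 over a median of 13.64 up to 13.84 in E2F1 null tumours, from 13.46 over 13.65 up to 13.83 in E2F2 null tumours, from 13.30 over 13.54 up to 13.82 in E2F3 heterozygous tumours and from 13.16 over 13.57 up to 13.77 in wild type, a 1.68-fold range over all tumours.

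Tcof1 is the treacle protein that helps RNA polymerase I on ribosomal DNA. Its slope was the smallest of the 38, at 0.14 (SE 0.18, limma adjusted p = 0.54, 95% interval -0.22 to 0.51). The interval holds the slopes of Polr1c (0.23) and Npm1 (0.40), and a difference between genes was not tested. The Tcof1 signal varied as widely as that of any listed gene (SD 0.42). The signal of Tcof1 ran from 7.60 over a median of 8.79 up to 9.47 in E2F1 null tumours, from 8.12 over 8.66 up to 9.89 in E2F2 null tumours, from 7.81 over 8.69 up to 9.19 in E2F3 heterozygous tumours and from 7.98 over 8.72 up to 9.73 in wild type. The genotypes overlapped throughout. The other probe sets of Tcof1 gave slopes of 0.05 and 0.10, also short of the threshold, and without E2F1 null replicate 6 the slope turned to -0.06.

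Small subunit processing factors rose with Myc in 6 of 7 cases, and in 5 of 7 without E2F1 null replicate 6, where Imp4 did not pass. They were Rrp9, a protein of the U3 snoRNP (slope 0.56, SE 0.13, adjusted p = 0.000216), the scaffold protein Nop14 (0.52, SE 0.10, adjusted p = 2.71e-05), the early processome protein Wdr43 (0.48, SE 0.10, adjusted p = 6.26e-05), Noc4l (0.44, SE 0.10, adjusted p = 0.000163), the export factor Rrp12 (0.44, SE 0.16, adjusted p = 0.0205) and Imp4 (0.34, SE 0.10, adjusted p = 0.00384), another U3 snoRNP protein. Wdr75 had 0.22 (SE 0.12, adjusted p = 0.144). Imp4, with CACGTG in the sequence shown above, ran from 9.06 over a median of 9.84 up to 10.18 in E2F1 null tumours, from 9.73 over 9.87 up to 10.17 in E2F2 null tumours, from 9.20 over 9.85 up to 10.14 in E2F3 heterozygous tumours and from 9.12 over 9.80 up to 10.29 in wild type. The lowest E2F2 null tumour thus lay well above the lowest tumour of each other genotype, while the upper ends coincided. Wdr43, which carries CACGTG just after its start, ran from 9.64 over 10.47 up to 10.84 in E2F1 null tumours, from 10.12 over 10.55 up to 10.83 in E2F2 null tumours, from 10.03 over 10.34 up to 10.85 in E2F3 heterozygous tumours and from 9.65 over 10.52 up to 11.05 in wild type.

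Large subunit processing factors rose with Myc in 13 of 13 cases, and in 10 of 13 without E2F1 null replicate 6, where Nip7, Ebna1bp2 and Rrs1 did not pass. Pes1, Bop1 and Wdr12 form the PeBoW complex, which matures the RNA of the large subunit, and their slopes were 0.74 (SE 0.11, adjusted p = 4.46e-07), 0.52 (SE 0.14, adjusted p = 0.00201) and 0.56 (SE 0.09, adjusted p = 2.04e-06). A dim second probe set of Pes1 gave 0.24 (SE 0.30), which is of the same sign and too imprecise to compare. Ppan, the mouse relative of yeast SSF1, had a slope of 0.68 (SE 0.08, adjusted p = 2.47e-09). It ranked 17 among all tested genes by moderated t statistic, counted from the most positive.

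Ppan ran from 8.61 over a median of 9.64 up to 9.99 in E2F1 null tumours, from 8.82 over 9.58 up to 9.97 in E2F2 null tumours, from 9.14 over 9.61 up to 10.08 in E2F3 heterozygous tumours and from 9.04 over 9.70 up to 9.95 in wild type. In each genotype the tumours with the lowest Myc signal also lay at the low end for Ppan. Expressed as a fold, Ppan was 1.60-fold higher per doubling of the Myc signal (95% interval 1.43 to 1.80), against 1.32-fold for Npm1 (1.22 to 1.42).

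**Figure D2:**
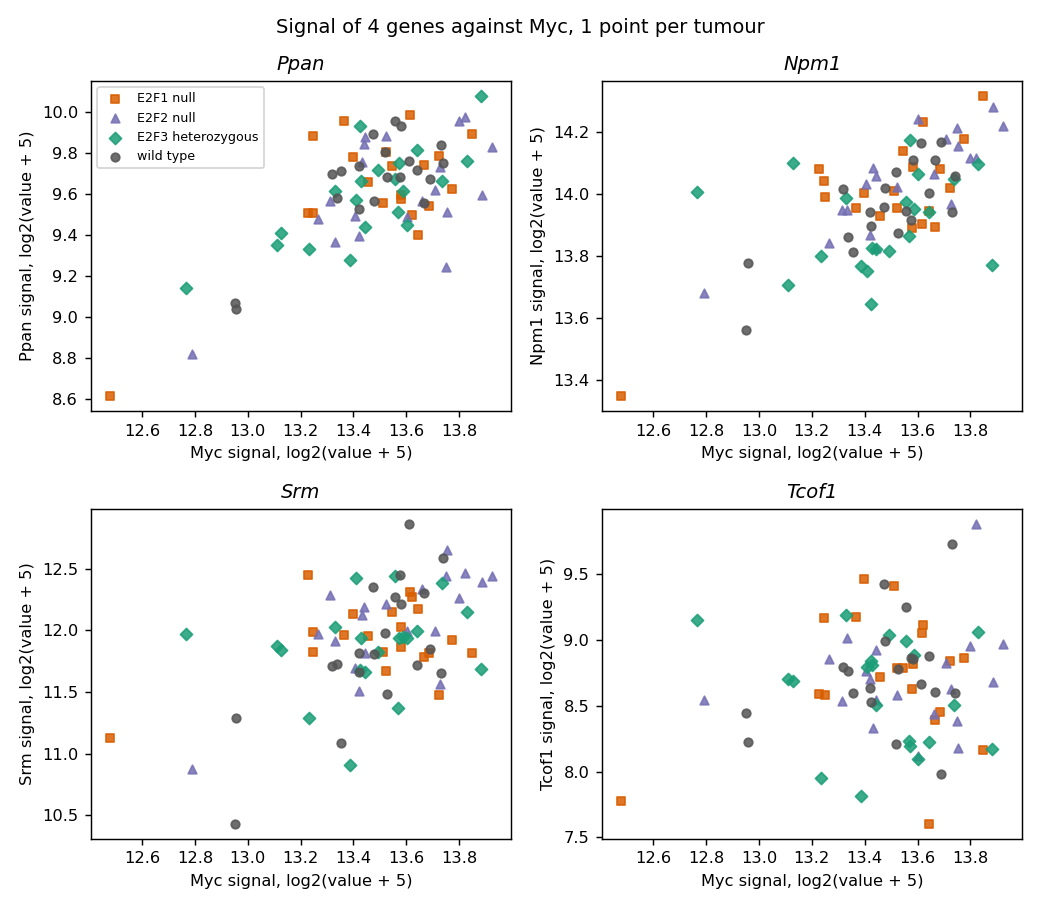
Signal of Ppan, Npm1, Srm and Tcof1 (vertical axes, log2(value + 5)) against that of Myc (horizontal axes, log2(value + 5)), 1 point per tumour, by genotype. The points climb with slopes of 0.68, 0.40 and 0.76 for the first 3 genes, while Tcof1 (0.14) spreads from 7.60 to 9.89 with little relation to Myc; the tumour at a Myc signal of 12.48 is E2F1 null replicate 6.

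Nucleostemin (Gnl3), a GTP-binding nucleolar protein of dividing cells, had a slope of 0.47 (SE 0.07, adjusted p = 2.34e-07) with an SD of only 0.20. Its signal ran from 10.93 over a median of 11.67 up to 11.92 in E2F1 null tumours, from 11.17 over 11.67 up to 12.18 in E2F2 null tumours, from 11.21 over 11.63 up to 11.999 in E2F3 heterozygous tumours and from 11.25 over 11.67 up to 11.93 in wild type. The 4 medians of Gnl3 differed by less than 0.05. The RNA methyltransferase Nop2, whose promoter window holds CACGTG, had a slope of 0.62 (SE 0.13, adjusted p = 6.52e-05). Nop2 ran from 9.12 over a median of 10.05 up to 10.67 in E2F1 null tumours, from 9.22 over 9.96 up to 10.52 in E2F2 null tumours, from 9.32 over 9.94 up to 10.43 in E2F3 heterozygous tumours and from 9.04 over 10.24 up to 10.69 in wild type. The wild-type median was the highest of the 4, and the ranges overlapped almost entirely. Rrp1b had 0.67 (SE 0.12), Ftsj3, an RNA methyltransferase family member, 0.62 (SE 0.12), Wdr74 0.48 (SE 0.10) and Noc2l 0.46 (SE 0.12). The slopes of Nip7 and Ebna1bp2 were shallower, at 0.38 (SE 0.11) and 0.36 (SE 0.11). Rrs1, whose yeast relative helps bring the smallest ribosomal RNA into the particle, had 0.34 (SE 0.10).

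The 4 growth genes divided evenly. Srm, the spermidine synthase of polyamine metabolism, had the steepest slope of all 38, 0.76 (SE 0.16, adjusted p = 6.44e-05), and Eif4a1, the helicase that unwinds mRNA for translation, had 0.30 (SE 0.06, adjusted p = 7.58e-05). The other probe sets of Eif4a1 gave 0.24 (SE 0.14, adjusted p = 0.163) and 0.18 (SE 0.22, adjusted p = 0.543 among all probe sets), and with the mean of its probe sets the gene did not pass, at 0.24. Odc1, the ornithine decarboxylase that opens polyamine synthesis and a textbook Myc target, had 0.28 (SE 0.16, adjusted p = 0.15), and Cad, which starts pyrimidine synthesis, had 0.26 (SE 0.12, adjusted p = 0.064). The further probe sets of Odc1 gave 0.44 (SE 0.20) and 0.33 (SE 0.15), and that of Cad 0.39 (SE 0.14, adjusted p = 0.0232 among all probe sets). With the mean of its probe sets Cad passed, at 0.33 (limma adjusted p = 0.031). Srm was also the most variable listed gene: its signal ran from 11.12 over a median of 11.94 up to 12.45 in E2F1 null tumours, from 10.88 over 12.15 up to 12.65 in E2F2 null tumours, from 10.91 over 11.94 up to 12.44 in E2F3 heterozygous tumours and from 10.43 over 11.81 up to 12.86 in wild type. The wild-type tumours held both the lowest and the highest Srm signal of the series, a 5.39-fold range.

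Of 85 other measured ribosome biogenesis genes, 58 rose with Myc and 1 fell, with a median slope of 0.36. With the level of collagen and fibroblast genes in the model, 21 of the 85 rose, with a median slope of 0.16, and with the level of mitosis genes 42 rose, with a median of 0.27. Among the smallest p-values were Nifk, which binds the Ki-67 protein (slope 0.54, SE 0.08, adjusted p = 1.58e-07), the helicase Ddx27 (0.60, SE 0.09, adjusted p = 2.07e-07) and Pa2g4 (0.62, SE 0.10, adjusted p = 5.19e-07). Nle1, which acts late in large subunit assembly, was steeper still at 0.99 (SE 0.17, adjusted p = 2.39e-06). The gene that fell was Znrd1, a small subunit of RNA polymerase I, with a slope of -0.28 (SE 0.10, adjusted p = 0.0124), against positive slopes of Polr1a and Polr1b.

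Ribosomal protein genes rose in 38 of 43 cases and fell in 0, with a median slope of 0.28, and 30 of 43 rose with the collagen level in the model (median 0.21); Rpl11 had 0.40 (SE 0.05, adjusted p = 1e-09) and Rpl22 0.51 (SE 0.07, adjusted p = 1.13e-07). Of 8 measured genes of the Max network, which share or compete for the partner of Myc, Mxi1 rose (0.40, SE 0.12, adjusted p = 0.00419), and the repressor Mnt had -0.48 (SE 0.21, adjusted p = 0.0513). The Max gene itself had -0.23 (SE 0.31, adjusted p = 0.572).

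**Figure D3:**
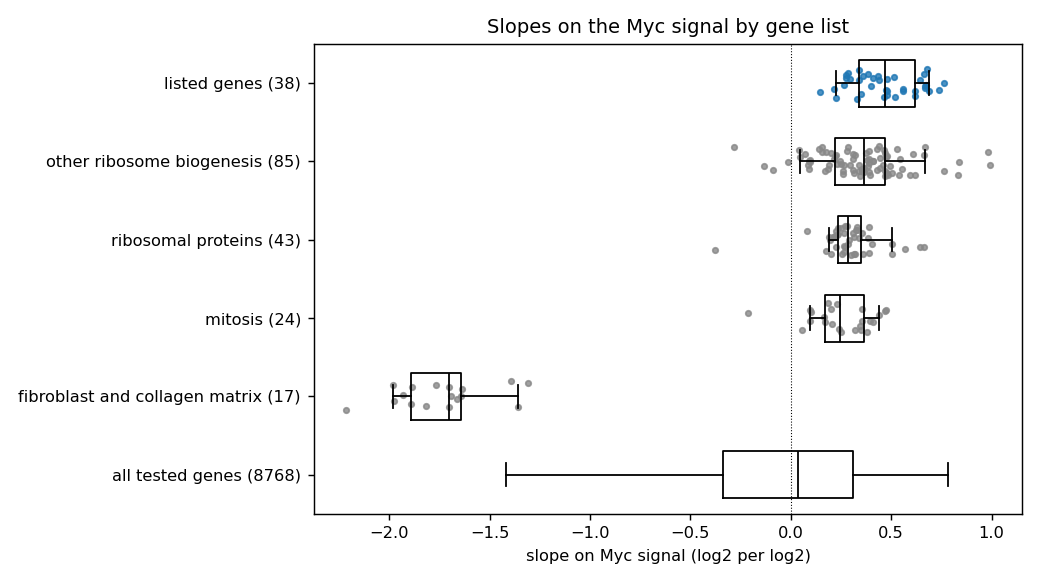
Slopes on the Myc signal (log2 per log2) by gene list, with the number of genes in brackets; boxes show quartiles and median, whiskers the 5th and 95th percentiles, points single genes (drawn for all lists but the last). All 38 listed genes (median 0.47) lie right of 0, as do 81 of 85 other ribosome biogenesis genes (0.36). So do 42 of 43 ribosomal protein genes (0.28) and 23 of 24 mitosis genes (0.24). The fibroblast and collagen matrix genes (-1.70) lie left of 0.

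Fibroblast, endothelial and macrophage genes moved opposite to Myc. Of 17 fibroblast and collagen matrix genes 17 fell with the Myc signal (median slope -1.70), such as Thy1 (-1.93, SE 0.32, adjusted p = 2.11e-06) and Col5a1 (-2.22, SE 0.38, adjusted p = 3.56e-06), and so did 7 of 8 endothelial and 9 of 10 macrophage genes. Averaged per label number with genotype means removed (53 values), the Myc signal correlated with the collagen level at Pearson r = -0.71 (permutation p = 1e-05, the smallest that 100000 resamples can give; adjusted p = 5.5e-05 over 11 relations) and Spearman rho = -0.54 (p = 3e-05, adjusted p = 0.000275). Without the 2 values farthest from the median Myc signal r was -0.55. Of 4 adipocyte genes 0 were called and 3 had a positive slope (median 0.85), and their level had r = -0.02 (permutation p = 0.915). Of 8 skeletal muscle genes 1 was called lower and 0 had a positive slope, and their level had r = 0.004 (permutation p = 0.979). The summed signal of the 17 collagen and fibroblast genes ran from 7322 to 175778 in E2F1 null tumours, from 9145 to 56796 in E2F2 null tumours, from 12687 to 117336 in E2F3 heterozygous tumours and from 9871 to 136333 in wild type.

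Mitosis genes rose in 3 of 24 cases (Mki67, Ccna2 and Kif11), against 23.5% of all genes, with a median slope of 0.24. Their level correlated with Myc at r = 0.42 (permutation p = 0.0021, adjusted p = 0.00462) and rho = 0.15 (p = 0.269), but at r = 0.13 without the 2 farthest values, so this relation rests on those samples. The luminal level had r = 0.22 (permutation p = 0.104, adjusted p = 0.191) and rho = 0.18 (p = 0.207). The chromosome 15 level, the chromosome that carries the mouse Myc gene, had r = 0.19 (permutation p = 0.169) and rho = 0.07 (p = 0.605). The median of the array had r = -0.53 (permutation p = 6e-05, adjusted p = 0.000165) and rho = -0.54 (p = 5e-05), and r = -0.42 without the 2 farthest values.

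With the collagen level in the model beside Myc, 18 of the 38 listed genes still rose with Myc, against 13.3% of all genes, and their median slope was 0.31. Ppan had 0.59 (SE 0.09, adjusted p = 6.93e-06), Rrp1b 0.65 (SE 0.13, adjusted p = 0.000303), Polr1b 0.58 (SE 0.12, adjusted p = 0.000251) and Noc2l, a repressor of histone acetylation with a nucleolar role, 0.50 (SE 0.14, adjusted p = 0.00713). Srm no longer passed, at 0.41 (SE 0.16, adjusted p = 0.0611), nor did Eif4a1 at 0.10 (SE 0.05, adjusted p = 0.203), and 0 of the 4 growth genes passed. Over the 16 alternatives that keep all 4 genotypes the adjusted p of Ppan ran from 2.08e-10 to 6.93e-06, that of Rrp1b from 2.28e-06 to 0.000634, that of Polr1b from 3.54e-07 to 0.000251, that of Noc2l from 0.000141 to 0.018, that of Srm from 1.21e-05 to 0.0611 and that of Eif4a1 from 9.63e-06 to 0.203. By role, the genes that passed were 9 of 13 for the large subunit, 4 of 8 for RNA polymerase I and nucleolar factors, 3 of 7 for the small subunit, and 1 of 3 each for the box C/D and box H/ACA particles.

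In the same model 25 of 38 listed genes fell with the collagen level at a given Myc signal, against 21.9% of all genes. None rose (0 of 38), against 26% of all genes. An unadjusted p under 0.05 by limma, in either direction, was reached by 26 of 38, against 53.9% of all genes. With the mitosis level in place of collagen, 31 of 38 rose with Myc (21.7% of all genes), and 36 of 38 rose with the mitosis level beside Myc (22.7% of all genes), with a median coefficient of 0.33 per log2 unit. With both levels in the model, an alternative chosen after seeing the data, 26 rose with Myc (14.9% of all genes; median slope 0.38). With the luminal level the count was 33 (24.7% of all genes). With the level of a gene's own chromosome, a stand-in for gene dosage, it was 32 (23% of all genes), and 15 of 38 rose with that chromosome level beside Myc, close to the 39.6% of all genes. Polr1a and Nop2 on chromosome 6 followed it most precisely, with coefficients of 1.44 and 1.01 (adjusted p = 2.92e-15 and 1.89e-09 by limma), ahead of Bop1 on chromosome 15 with 0.87 (adjusted p = 6.64e-08).

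**Figure D4:**
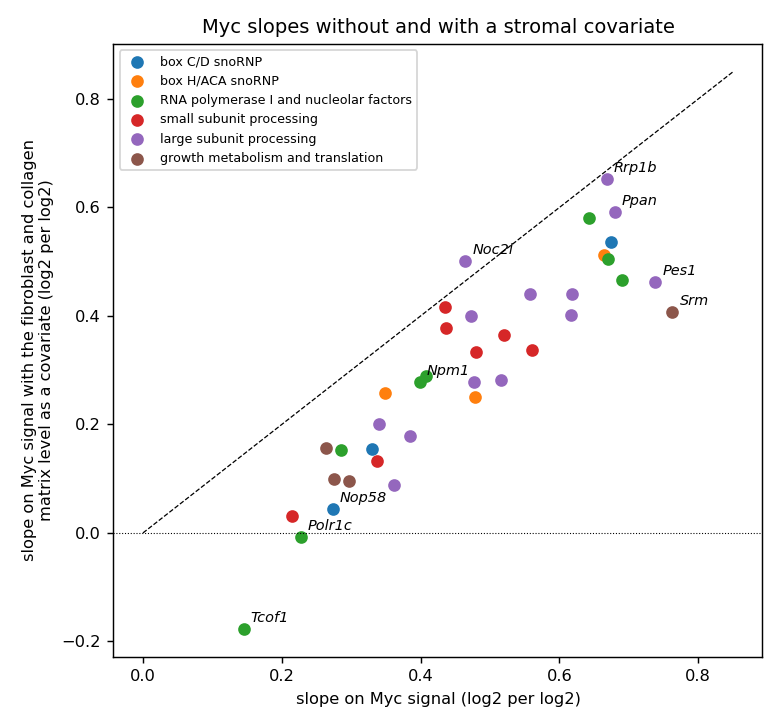
Slope of each of the 38 genes on the Myc signal without a further covariate (horizontal axis) and with the fibroblast and collagen matrix level in the model (vertical axis), both log2 per log2, coloured by role; the dashed line marks equality. All points but that of Noc2l lie below the line, the median falls to 0.31 with the covariate, against 0.47 without it, and Tcof1 and Polr1c end below 0.

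The listed genes also varied together. Over the 80 tumours the median correlation between pairs of them was 0.52 (703 pairs, 0.02 to 0.85, 0 below 0), against 0.01 for pairs of all tested genes. All these values share arrays and scaling, and the correlations are a description. Each gene's correlation with the mean of the others ran from 0.42 for Odc1 to 0.87 for the large subunit factor Wdr74, with Nop56 at 0.86 and Nolc1 at 0.84; Nop58, Tcof1 and Bop1 were near the low end at 0.46, 0.46 and 0.48. The other ribosome biogenesis genes correlated with the mean of the listed genes at a median of 0.61, and ribosomal protein genes at 0.27.

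The level of the 38 genes in a tumour was taken as the mean of their deviations, in log2 units, from each gene's own mean. Its lowest, median and highest values were -0.83, 0.04 and 0.22 in E2F1 null tumours, -0.47, 0.06 and 0.41 in E2F2 null tumours, -0.51, -0.05 and 0.23 in E2F3 heterozygous tumours and -0.71, 0.04 and 0.33 in wild type. E2F1 null replicate 6 was lowest, with all 38 genes below their own means, a Myc signal of 12.48 and a collagen level of 3.04 log2 units above the mean. Wild-type replicate 18 (-0.71) and E2F3 heterozygous replicate 13 (-0.51) followed, with all 38 genes below their means, and with Myc signals of 12.95 and 13.39 and collagen levels of 1.93 and 2.27. E2F2 null replicate 19 was highest, at 0.41, with 1 gene below its mean.

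Without the 2 tumours farthest from the median Myc signal, 25 of the 38 genes rose with Myc, against 17.5% of all genes, with a median slope of 0.43. The 2 tumours were E2F1 null replicate 6 itself (Myc signal 12.48) and E2F3 heterozygous replicate 1 (12.77). The genes that no longer passed were the 6 that also need E2F1 null replicate 6, and Rrp12 (slope 0.43). Because that tumour is left out in both fits, the loss of the same 6 genes is not a separate check.

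Within single genotypes most slopes were positive, with fewer calls at 20 tumours each. Over all genes the share of positive slopes ran from 49.9% (wild type) to 55% (E2F1 null). In E2F1 null tumours 38 of 38 slopes were positive, the median was 0.52 and 12 genes passed (5.21% of all genes). In E2F2 null tumours 36 were positive, the median was 0.48 and 9 passed (2.7% of all genes). In E2F3 heterozygous tumours 32 were positive and the median was 0.24. There 1 gene passed (2.63%, against 3.34% of all genes), Ppan at 0.66 (SE 0.16, limma adjusted p = 0.0222). In that genotype 6 of 38 had an unadjusted p under 0.05 by limma, against 23.5% of all genes. The listed genes thus passed no more often than genes at large in E2F3 heterozygous tumours. In wild type 38 were positive, the median was 0.73 and 16 passed (7.53% of all genes). Wild-type replicates 18 and 6 had Myc signals of 12.95 and 12.96, and the next lowest wild-type tumour 13.32. Their collagen levels were 1.93 and 2.62, and all 38 genes lay below their own means in both. The wild-type slopes were not fitted without them. Ppan had 0.67 (SE 0.18) in E2F1 null tumours, 0.61 (SE 0.19) in E2F2 null tumours and 0.86 (SE 0.18) in wild type. The unadjusted interaction p of Ppan, the test of a difference between these slopes, was 0.80.

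The difference between genotypes was tested by the interaction of Myc signal and genotype. By limma 0 of the 38 genes passed, against 0.0228% of all genes, and 8 of 38 had an unadjusted p under 0.05, against 11% of all genes. Srm had the smallest p of these (0.0026), with slopes of 0.37 (SE 0.22) in E2F1 null tumours, 1.10 (SE 0.23) in E2F2 null tumours, 0.18 (SE 0.31) in E2F3 heterozygous tumours and 1.78 (SE 0.40) in wild type. Npm1 was next (p = 0.00873), with 0.50 (SE 0.10) in E2F1 null, 0.49 (SE 0.08) in E2F2 null, 0.09 (SE 0.13) in E2F3 heterozygous and 0.52 (SE 0.11) in wild-type tumours. A slope that passes in one genotype and not in another is therefore not shown to differ.

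The loss of single E2F genes was compared next, to ask whether it alters the amount of ribosome biogenesis transcripts in a Myc tumour. All 3 comparisons share the wild-type tumours. In E2F1 null tumours 0 of the 38 genes passed by limma (0.0456% of all genes), and 0 had an unadjusted p under 0.05 (1.28% of all genes). The log2 fold changes of the 38 against wild type ran from -0.11 to 0.11 with a median of -0.01. In E2F2 null tumours 0 passed (0.0228% of all genes), and 2 of 38 had an unadjusted p under 0.05, against 6.14% of all genes. Of the 38, 32 were higher, with a median of 0.08 (range -0.19 to 0.25). Over all genes 4058 of 8769 were higher, with a median of -0.01. In the same comparison 24 of 24 mitosis genes were higher (median 0.22) and 12 of 17 collagen and fibroblast genes lower (median -0.15), with 0 called in either list. In E2F3 heterozygous tumours 0 passed (0% of all genes), and 0 had an unadjusted p under 0.05 (0.661% of all genes). Of the 38, 30 were lower, with a median of -0.03 (range -0.18 to 0.04), against 4106 of 8769 genes lower and a median of 0.01 over all genes. There, 17 of 17 collagen and fibroblast genes (median 0.31) and 7 of 8 endothelial genes (median 0.14) were higher, with 0 called in either list. The median SE of the listed genes' changes was between 0.09 and 0.10. The listed genes vary together (median correlation between pairs 0.52), so counts of genes higher or lower are not counts of separate observations.

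The moderated F test over 4 genotypes called 0 of the 38 (0.148% of all genes). An unadjusted p under 0.05 was reached by 2 of 38, close to the 4.24% of all genes. They were Pes1 (0.0423) and Noc4l (0.0490), followed by Eif4a1 (0.0561) and Bop1 (0.0901). The lowest, median and highest signals of Pes1 were 9.65, 10.66 and 10.97 in E2F1 null tumours, 9.80, 10.82 and 11.25 in E2F2 null tumours, 9.99, 10.56 and 10.89 in E2F3 heterozygous tumours and 9.77, 10.60 and 11.36 in wild type. Its log2 fold change in E2F2 null tumours against wild type was 0.25 (SE 0.11, p = 0.026, limma adjusted p = 0.788). The groups overlapped over almost their whole range, and the highest Pes1 signal was that of a wild-type tumour.

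Noc4l ran from 9.21 over a median of 9.89 up to 10.26 in E2F1 null tumours, from 9.68 over 10.07 up to 10.44 in E2F2 null tumours, from 9.57 over 9.96 up to 10.27 in E2F3 heterozygous tumours and from 9.31 over 9.88 up to 10.43 in wild type. In E2F2 null tumours it differed from wild type by 0.20 log2 units (SE 0.08, p = 0.0172, limma adjusted p = 0.788). Eif4a1 ran from 12.81 over 13.26 up to 13.59 in E2F1 null tumours, from 13.06 over 13.31 up to 13.55 in E2F2 null tumours, from 12.87 over 13.23 up to 13.41 in E2F3 heterozygous tumours and from 12.76 over 13.24 up to 13.56 in wild type. Bop1 ran from 8.98 over 9.72 up to 10.44 in E2F1 null tumours, from 9.46 over 9.97 up to 10.71 in E2F2 null tumours, from 9.30 over 9.85 up to 10.63 in E2F3 heterozygous tumours and from 8.88 over 9.83 up to 10.68 in wild type. For each of these genes the E2F2 null group had the highest median and still overlapped wild type.

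**Figure D5:**
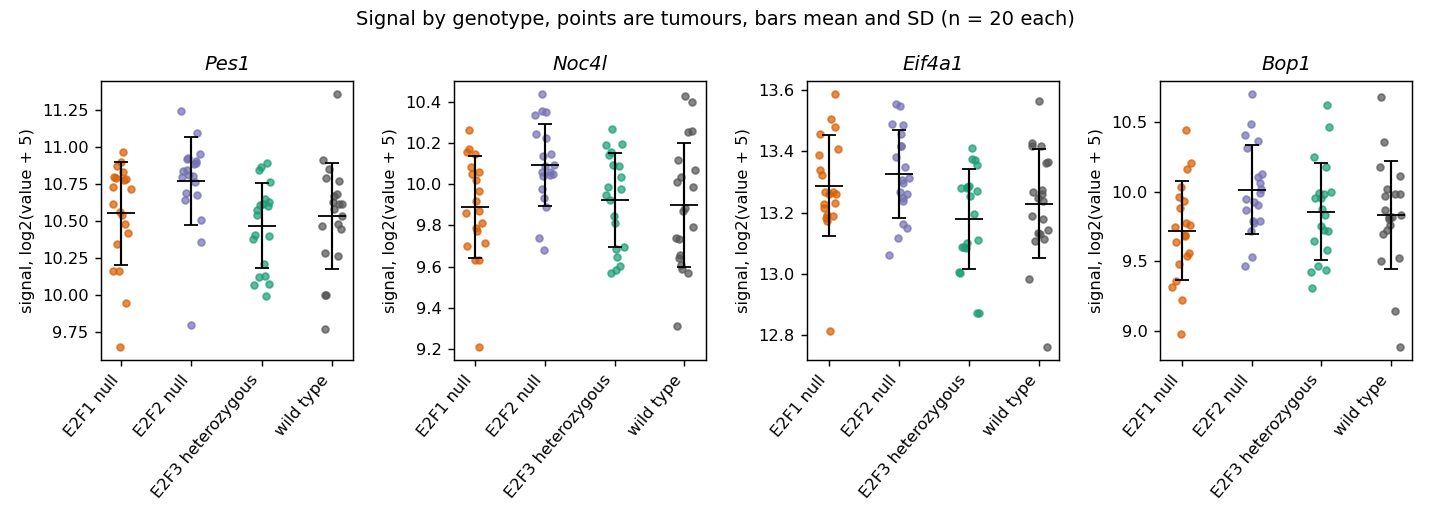
Signal (log2(value + 5)) of Pes1, Noc4l, Eif4a1 and Bop1, the 4 listed genes with the smallest p-values over the genotypes, 1 point per tumour, with mean and SD (n = 20 per genotype). E2F2 null tumours have the highest median for each gene, 10.82 against 10.60 in wild type for Pes1, and the groups overlap.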

How the data were processed

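Tumour RNA was measured on 80 Affymetrix arrays. The deposited values are linear intensity values that the authors made with MAS5 in Affymetrix Expression Console, per the submitters' processing notes (versions: not given in the sources used here). Array means, trimmed by 2% at either end, were 500.17 to 500.22, so a change in total mRNA per cell cannot be seen. Intensities were turned into log2(value + 5). Genes were named through the array's probe table, with symbols updated through gene IDs to the RefSeq table of GRCm38.p6; of 22690 probe sets (64 of them controls), 20380 carried 1 symbol, 691 several and 1555 none. The brightest probe set stood for a gene. Genes above the 40th percentile (6.31 on the log2 scale) on at least 10 arrays were tested, 8769 in all.

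Fits used limma 3.58.1 with statmod 1.5.0 in R 4.3.3 (intensity trend, robust), two-sided, with Benjamini-Hochberg adjustment over all tested genes and a threshold of 0.05. The number before the hyphen in each sample label was a random block: 53 numbers, 16 in E2F1 null, 11 in E2F2 null, 10 in E2F3 heterozygous and 16 in wild-type tumours, shared by 46 arrays (consensus correlation 0.16 in the genotype model and 0.11 in the Myc model). Its meaning is not stated in the labels. Replicates are numbered in accession order, and where tumours share an animal, p-values measure part of their spread only. The number of arrays limits the precision. The fits were tested on simulated data. Marker levels are means of log2 deviations from each gene's mean over 80 arrays. Correlations and plots were made in Python 3.11.15 (numpy 2.4.6; pandas 2.3.3; scipy 1.17.1; matplotlib 3.10.9). The members and gene lists were chosen with earlier results of these data known. In depth the text names the 6 genes with the smallest Myc slope p-values, the 4 with the smallest genotype p-values, the 3 most and 3 least variable and those with CACGTG. Pseudocount, filter, probe set rule, block, scaling, left-out tumours, covariates and genotypes alone were varied.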

Additional observations from a re-analysis of the deposited data

How the results depend on the processing

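Of the 38 genes, 32 rose with Myc, and the count lay between 25 and 36 under the other pseudocounts, filters, probe set rules, scalings, blocks, left-out tumours and most covariates. It was 18 with the collagen level as covariate, 12 for E2F1 null tumours alone, 9 for E2F2 null alone, 1 for E2F3 heterozygous alone and 16 for wild type alone. Without the label-number replicate block it was 33, and with 1 mean per label number 36. No paired analysis was possible because no label number occurs in more than 1 genotype. Without E2F1 null replicate 6 it was 26. The cause of these shifts was not tested, and single genotypes also hold fewer tumours. The median slope of 0.47 ran from 0.24 (E2F3 heterozygous alone) to 0.73 (wild type alone). In the genotype comparisons 0 of the 38 genes passed under each alternative.

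Slopes below 0 arose for Tcof1 without E2F1 null replicate 6 (-0.0561), with collagen (-0.18), mitosis (-0.0119) or both (-0.0772) and for E2F3 heterozygous tumours alone (-0.48). The slope of Polr1c was -0.0081 with collagen and -0.26 for E2F3 heterozygous tumours alone. That of Nop58 was -0.0135 for E2F2 null and -0.26 for E2F3 heterozygous tumours alone, and that of Wdr75 was -0.0715 for E2F2 null tumours alone. For E2F3 heterozygous tumours alone Gar1 had -0.0624, Ebna1bp2 -0.21 and Odc1 -0.44. Genotype fold changes near 0 that changed sign were, for E2F3 heterozygous tumours, Bop1 with 1 mean per label number (-0.0157) and, with collagen, Pes1 (0.0157) and Eif4a1 (0.00028), and for E2F1 null tumours Noc4l without replicate 6 (0.0304).

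Among all genes, 2064 rose and 1917 fell with Myc. With collagen these counts were 1169 and 669, with collagen and mitosis 1309 and 776, and 1093 fell with the array median as covariate. They were 457 and 440 for E2F1 null alone, 237 and 133 for E2F2 null alone, 293 and 218 for E2F3 heterozygous alone and 660 and 885 for wild type alone. The interaction called 2 genes, 6 without the filter, 0 without the block and 0 without E2F1 null replicate 6. The E2F1 null comparison called 4 genes, 8 with the mean of probe sets and 7 with collagen. With collagen the E2F2 null comparison called 4 genes against 2, and the E2F3 heterozygous comparison 1 against 0. The F test called 13, and 8 both with 1 mean per label number and after quantile normalization.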
